A study of Homo sapiens with 4 samples.

Results

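The replication histone genes of chromosome 6 were described by the ATAC-seq peaks that the deposited lists assign to them. A member was any peak in the histone gene cluster of chromosome 6 whose nearest gene carried a name beginning with HIST1H or with the newer histone symbols. In control-hairpin cells there were 40 members among 52192 peaks with DMSO and 37 among 49783 with rapamycin. In ARID1A-knockdown cells there were 43 among 45700 peaks with DMSO and 42 among 44760 with rapamycin. All of them carried HIST1H names. They were set beside a list of 55 genes of the cluster, with 6 genes for the linker histone H1, 12 for H2A, 15 for H2B, 10 for H3 and 12 for H4.

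ATAC-seq uses a transposase that cuts and tags accessible DNA, so that a peak marks a stretch of open chromatin. The cells were Huh7, an established human liver cancer line. They carried shControl, a control hairpin, or shARID1A, a hairpin directed at the gene of a DNA-binding subunit of the BAF chromatin remodeller. Each kind of cell was left in DMSO or received 100 nM rapamycin, an inhibitor of the mTORC1 kinase, for 6 h. Every group held 1 library from 50000 cells, so variation from culture to culture was not measured and no p-value is given. Where a sentence gives 4 values, the order is DMSO then rapamycin in shControl, followed by DMSO then rapamycin in shARID1A. The peak lists do not measure ARID1A RNA or protein, so the knockdown itself was not checked here. How many hairpins or clones were used is not stated in the labels.

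Replication histones are made in S phase to package newly copied DNA. Pairs of H3 and H4 form the core of the nucleosome, H2A and H2B join it as dimers, and H1 binds the DNA at its entry and exit. Most of these genes are short, have no intron and lie in clusters, where many H2A and H2B genes stand head to head and share the DNA between their starts. Their transcription is tied to NPAT, a coactivator held at histone locus bodies, and their RNAs end in a stem-loop in place of a poly(A) tail.

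The bases before the gene starts carried the classic histone promoter elements, and they are shown here because peak presence was read at these stretches. Sequences and starts are from RefSeq on GRCh38.p14. Capitals mark the TATA box TATAAA, the CCAAT box CCAAT, the octamer ATGCAAAT and the H4 element GGTCCG, each searched on both strands. The stretches between divergent starts are given for 3 H2A and H2B pairs, of which the first and the second lay under a peak in all 4 libraries and the third in none.
HIST1H2BJ to HIST1H2AG, chr6:27132796-27133042, + strand: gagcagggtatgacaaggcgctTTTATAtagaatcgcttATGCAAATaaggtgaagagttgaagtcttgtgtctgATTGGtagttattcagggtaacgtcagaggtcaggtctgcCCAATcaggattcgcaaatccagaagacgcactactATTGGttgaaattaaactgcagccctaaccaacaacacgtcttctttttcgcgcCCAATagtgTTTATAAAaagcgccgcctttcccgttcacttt
HIST1H2AD to HIST1H2BF, chr6:26199294-26199515, + strand: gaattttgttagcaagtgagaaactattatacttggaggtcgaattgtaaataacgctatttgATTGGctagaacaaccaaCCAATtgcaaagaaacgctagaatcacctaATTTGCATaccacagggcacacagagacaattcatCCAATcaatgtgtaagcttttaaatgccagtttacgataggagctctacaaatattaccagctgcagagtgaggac
HIST1H2AJ to HIST1H2BM, chr6:27814778-27815021, + strand: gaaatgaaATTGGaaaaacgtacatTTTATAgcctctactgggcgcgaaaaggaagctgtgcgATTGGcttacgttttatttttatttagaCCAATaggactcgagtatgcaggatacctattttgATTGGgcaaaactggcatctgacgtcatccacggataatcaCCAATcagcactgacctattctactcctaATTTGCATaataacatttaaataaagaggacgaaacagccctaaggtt
For single genes, the 250 bases before the start are given for HIST1H2BI (H2BC10), whose peak moved most in rank, for an H4 gene with a peak in every library (HIST1H4H, H4C8) and one with none (HIST1H4I, H4C9), and for 3 H1 genes. Of these, HIST1H1C (H1-2) had a peak in all 4 libraries, HIST1H1B (H1-5) in the 2 shControl libraries and HIST1H1T (H1-6) in none.
HIST1H2BI, chr6:26272681-26272930, + strand: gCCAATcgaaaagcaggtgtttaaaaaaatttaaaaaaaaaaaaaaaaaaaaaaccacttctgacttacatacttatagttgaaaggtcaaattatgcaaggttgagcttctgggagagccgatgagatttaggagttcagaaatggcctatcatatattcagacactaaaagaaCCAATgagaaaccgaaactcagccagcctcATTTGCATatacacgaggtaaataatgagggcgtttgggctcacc
HIST1H4H, chr6:26285535-26285784, - strand: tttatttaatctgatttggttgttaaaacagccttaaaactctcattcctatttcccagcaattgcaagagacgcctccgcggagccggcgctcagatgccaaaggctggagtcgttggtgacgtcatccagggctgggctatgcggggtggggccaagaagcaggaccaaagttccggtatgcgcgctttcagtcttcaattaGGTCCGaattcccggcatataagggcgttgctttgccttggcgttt
HIST1H4I, chr6:27139032-27139281, + strand: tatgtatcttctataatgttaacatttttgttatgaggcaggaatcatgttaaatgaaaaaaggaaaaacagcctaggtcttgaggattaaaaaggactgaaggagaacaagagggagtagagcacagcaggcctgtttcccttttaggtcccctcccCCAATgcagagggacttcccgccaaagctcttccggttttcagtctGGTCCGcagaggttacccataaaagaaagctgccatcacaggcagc
HIST1H1C, chr6:26056471-26056720, - strand: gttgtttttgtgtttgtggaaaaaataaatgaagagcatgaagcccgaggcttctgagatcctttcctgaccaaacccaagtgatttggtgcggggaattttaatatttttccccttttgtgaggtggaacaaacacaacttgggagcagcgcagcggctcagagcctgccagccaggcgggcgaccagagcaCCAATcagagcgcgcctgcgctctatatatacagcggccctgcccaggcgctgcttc
HIST1H1B, chr6:27867589-27867838, - strand: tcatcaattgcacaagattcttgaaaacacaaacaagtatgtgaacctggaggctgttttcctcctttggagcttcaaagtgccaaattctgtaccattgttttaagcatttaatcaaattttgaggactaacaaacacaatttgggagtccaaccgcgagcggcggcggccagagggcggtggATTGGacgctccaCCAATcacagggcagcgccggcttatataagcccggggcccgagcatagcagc
HIST1H1T, chr6:26108136-26108385, - strand: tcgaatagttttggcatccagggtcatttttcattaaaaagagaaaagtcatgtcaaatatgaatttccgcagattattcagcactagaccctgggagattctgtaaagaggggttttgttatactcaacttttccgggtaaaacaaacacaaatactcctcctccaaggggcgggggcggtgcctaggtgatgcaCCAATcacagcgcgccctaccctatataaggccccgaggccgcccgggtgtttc

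Of the 55 genes, 50 were in the promoter table, and HIST1H4C (H4C3), HIST1H3I (H3C11), HIST1H3J (H3C12), HIST1H4A (H4C1) and HIST1H2AH (H2AC12) were not. A CCAAT box was found before 43 of the 50 genes, or 86%, against 31.9% of 35062 promoters of other genes. It was present before all 6 H1, 11 H2A, 15 H2B and 8 H3 genes in the table and before 3 of 10 H4 genes. A TATA box was found before 34 of 50 genes, or 68%, against 10.6% of the other promoters, on either strand and anywhere in the 250 bases. On the strand of the gene and about 30 bases before the start, it was found for 26 of 50 genes. The other promoters were not counted in that way. The octamer, which is known as the binding motif of OCT1 (POU2F1), stood before 9 of 11 H2A and 12 of 15 H2B genes and before no H1, H3 or H4 gene, against 1.57% of the other promoters. Head-to-head H2A and H2B genes share these bases, so their matches are often the same octamer, TATA box or CCAAT box counted for both genes. The H4 element was found before 9 of 10 H4 genes, each time on the strand of the gene with its first base between 44 and 47 bases before the start. It stood before 1 H3 gene as well, and before 9.42% of the other promoters. A match is a description of the letters and not a bound site. The median GC content of these 250 bases was 41.4% for the histone genes and 58.4% for the other promoters.

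**Figure D1:**
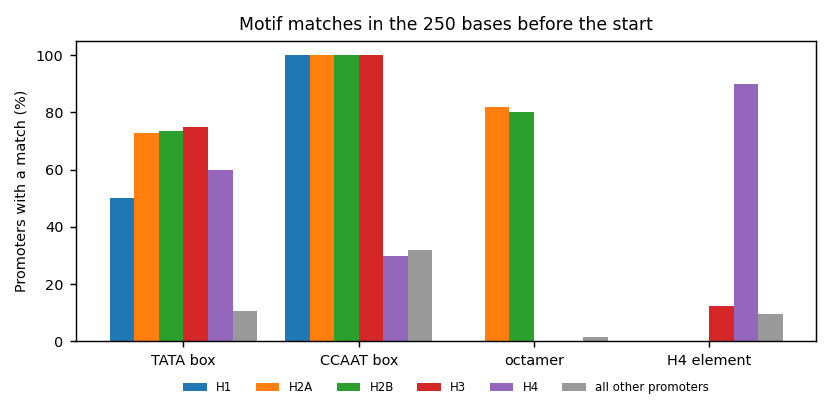
Share of promoters with at least 1 match to each motif in the 250 bases before the gene start (y axis, percent), for each histone type and for all other promoters in grey. CCAAT boxes stood before every H1, H2A, H2B and H3 gene in the table, the octamer before H2A and H2B genes alone among the histone types, and the H4 element before 9 of 10 H4 genes.

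The motifs were found with and without a peak. Of the genes with a peak in all 4 libraries and a promoter in the table, 25 of 36 had a TATA box, 30 a CCAAT box, 16 an octamer and 8 an H4 element. Among the genes without a peak in any library, 7 of 11 had a TATA box, 10 a CCAAT box, 4 an octamer and 2 an H4 element. Repeated sequence can keep reads from being placed. Of the 265 stretches of 36 bases in each promoter, 24.2% were shared with a distant promoter for HIST1H2AI (H2AC13), HIST1H2BL (H2BC13), HIST1H2AJ (H2AC14) and HIST1H2BM (H2BC14), which had no peak. The share was 54.3% for HIST1H4J (H4C11) and HIST1H4K (H4C12), which had a peak in all 4 libraries, and 0 for the other 44 genes in the table. Its part in the absence of peaks was not tested.

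Counted over the whole series, the 4 lists differed in length as given above. Numbers are skipped in the peak numbering of shControl rapamycin and shARID1A DMSO, with 1 and 6 skipped numbers inside the histone window and none beside a member that was lost or gained. Among liver markers in the start table, 3 of 6 had a promoter peak in every library (SERPINA1, HNF4A and FOXA1), and ALB, AFP and FGB had none. CD14 had one in every library, while the leukocyte gene PTPRC, the endothelial gene KDR and the fibroblast gene PDGFRB had none.

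Most histone genes of the cluster had open promoters in every library, and the set of open genes hardly differed among the 4. A gene counted as having a promoter peak where a peak lay within 1000 bp of its start. This held for 42 of 55 genes (76.4%, exact 95% interval 63.0 to 86.8%) in each library except shARID1A rapamycin, where it held for 41 (74.5%, 61.0 to 85.3%). The intervals, by Clopper-Pearson, cover counting error only, and neighbouring genes can share a peak. Of the other protein-coding genes with a start in the table, 67.7% to 68.7% of 15792 had a promoter peak. Among the 28 other protein-coding genes of the same window, 18 had one in each library. Among 360 non-histone genes no longer than 1000 bp, as most histone genes are, 44, 44, 45 and 41 had one.

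Across libraries, 40 genes had a peak in all 4, 12 in none and 3 in some. The 3 were HIST1H1B, HIST1H2BE (H2BC6) and HIST1H3H (H3C10). The genes lie in 3 groups separated by more than 300000 bp. In the first, 34 genes at chr6:25726063-26285534, 27, 28, 28 and 27 genes had a peak. In the second, 5 genes at chr6:27132316-27147562, 4 had one in each library, and in the third, 16 genes at chr6:27807479-27893891, 11, 10, 10 and 10 did. The 12 genes without a peak were HIST1H1T, HIST1H2AA (H2AC1), HIST1H2BA (H2BC1), HIST1H2AI, HIST1H2BL, HIST1H2AJ, HIST1H2BM, HIST1H3G (H3C8), HIST1H3J, HIST1H4F (H4C6), HIST1H4G (H4C7) and HIST1H4I. The closest peak in any library lay 1418 bp from HIST1H3G, the smallest distance among the 12, and 10559 bp from HIST1H2BA, the largest, with a median of 2457 bp.

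**Figure D2:**
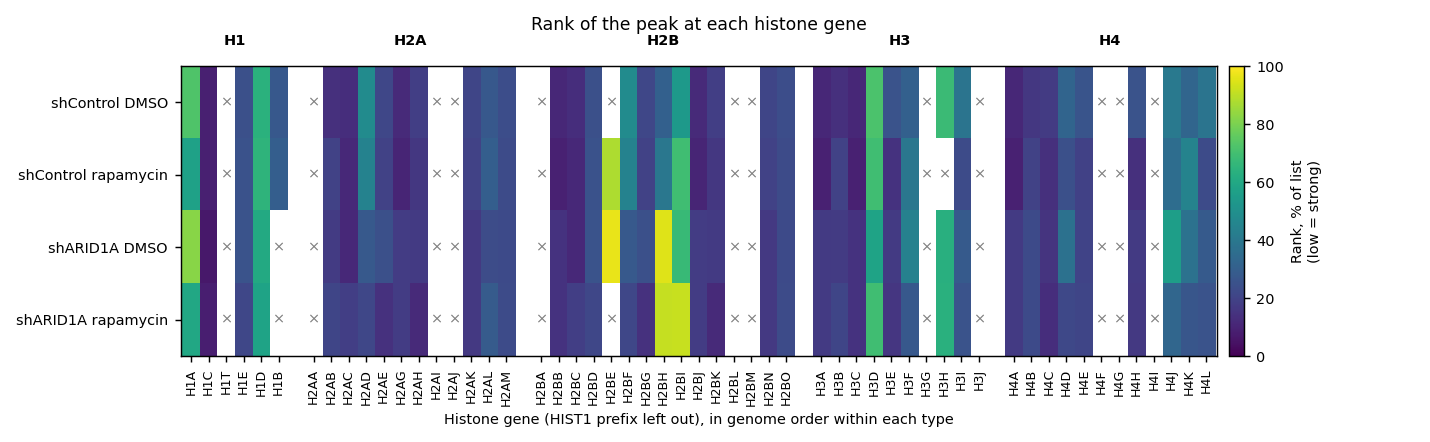
Rank of the closest peak within 1000 bp of each histone gene start, as percent of the list (colour, 0 is the strongest peak and 100 the weakest), for 55 genes (x axis, in genome order within each type) in 4 libraries (y axis). Crosses mark genes without such a peak: 12 columns have 4 crosses, and HIST1H1B, HIST1H2BE and HIST1H3H have crosses in some libraries only.

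Among the linker histone genes, 5, 5, 4 and 4 of 6 had a promoter peak. Rank is given as percent of list length by the authors' peak score, so that a low value is a strong peak. Within each type, the strongest, weakest and widest are named by the median over libraries among genes with a peak in all 4. HIST1H1C had the strongest peak of the type, at 8.73%, 8.64%, 6.29% and 8.33%. It stood at chr6:26054801-26056943 in shControl DMSO and was the histone promoter peak closest to the top of the list in each library. HIST1H1A (H1-1) was the weakest by median, at 72.4%, 57.3%, 82.2% and 60.0%. Its peak was 346 bp wide in shControl DMSO and 454 bp in shARID1A DMSO, and in shControl rapamycin 1 peak of 1336 bp covered the gene. In shARID1A rapamycin the peak at its start was gone, and the closest peak, of 532 bp, lay 776 bp away at the downstream side. HIST1H1E (H1-4) had the widest H1 peak, 2673 bp in 3 libraries and 2870 bp in shARID1A rapamycin, and shared it with HIST1H2BD (H2BC5).

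HIST1H1B differed between the genotypes in both treatments. In shControl DMSO a single peak of 2403 bp at chr6:27865082-27867485 ran from HIST1H2AL (H2AC16) across most of HIST1H1B and ended 103 bp short of its start. In shControl rapamycin it was 2380 bp wide and ended 116 bp short. In shARID1A DMSO the peak at HIST1H2AL was 1318 bp wide and ended 1312 bp from the HIST1H1B start, and in shARID1A rapamycin it was 1420 bp wide and ended 1199 bp away. The rank of that peak differed less, at 27.6% and 30.0% in shControl and 23.4% and 28.7% in shARID1A. HIST1H1B therefore had a peak within 1000 bp in the shControl libraries alone, and in all 4 with a window of 2000 bp. HIST1H1T, the testis-specific linker histone, had no peak closer than 2926 bp.

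Of the H2A genes, 9 of 12 had a promoter peak, in every library. HIST1H2AC (H2AC6) was the strongest by median, at 13.1%, 11.5%, 11.7% and 18.5%, and HIST1H2AD (H2AC7) the weakest, at 48.1%, 44.2%, 28.0% and 21.1%. HIST1H2AG (H2AC11) had the widest peak, with 2951, 2956, 3010 and 2976 bp. The 3 genes without a peak were HIST1H2AA, whose product is known from testis, and HIST1H2AI and HIST1H2AJ. Each of these 3 also lacked one at its head-to-head H2B partner. The partner starts lie 215, 244 and 245 bp away, well inside the 1000 bp window, so the 2 counts are not separate.

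Of the H2B genes, 11, 12, 12 and 11 of 15 had a promoter peak. HIST1H2BC (H2BC4) was the strongest by median and shared the peak of HIST1H2AC. HIST1H2BI was the weakest of those present in all libraries, at 53.7%, 69.2%, 67.4% and 91.5%. HIST1H2BJ (H2BC11) was the widest, with the peak of HIST1H2AG. HIST1H2BE was the gene with a peak in shControl rapamycin and shARID1A DMSO alone, of 318 bp at 87.7% and 480 bp at 96.6%. Both values are near the weak end of their lists.

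HIST1H2BH (H2BC9) was counted in all 4 libraries, but by different peaks. In shControl DMSO and shControl rapamycin the closest peak was that of HIST1H3F (H3C7), 773 and 892 bp away. In shARID1A DMSO a separate peak of 375 bp began 152 bp from the start, at 95.3% of the list. In shARID1A rapamycin a separate peak of 438 bp covered the start, at 91.1%. With a window of 500 bp the gene had a peak in the 2 shARID1A libraries alone.

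Of the H3 genes, 8, 7, 8 and 8 of 10 had a promoter peak. HIST1H3C (H3C3) was the strongest by median, at 10.96%, 9.12%, 14.5% and 14.5%. HIST1H3D (H3C4) was the weakest, at 71.5%, 69.4%, 58.1% and 69.3%. HIST1H3B (H3C2) had the widest peak, with 2442, 2616, 2516 and 2414 bp. HIST1H3H lacked a peak in shControl rapamycin, where the closest lay 1908 bp away. Its peaks elsewhere were narrow, at 394, 346 and 446 bp, with ranks of 68.3%, 63.3% and 63.4%.

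Of the H4 genes, 9 of 12 had a promoter peak, in every library. HIST1H4A (H4C1) was the strongest by median, at 10.99%, 9.12%, 16.8% and 16.96%, and HIST1H4J the weakest, at 40.5%, 35.6%, 55.9% and 32.8%. HIST1H4E (H4C5) had the widest peak by median, with 2041, 2021, 1880 and 1855 bp. HIST1H4L (H4C13) had no peak of its own and was counted through the peak at HIST1H3I, 644 to 677 bp from its start. HIST1H4G, HIST1H4F and HIST1H4I had none, although the promoters of the latter 2 carry the H4 element and a CCAAT box.

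Histone promoter peaks were wide, and few were among the strongest 10% of their lists. The genes were served by 28, 28, 30 and 29 distinct peaks, each taken as the closest to at least 1 start. Their median width was 1700, 1689.5, 1475.5 and 1471 bp. All promoter peaks of the same lists had medians of 979, 1043, 1062 and 1011 bp. These sets were picked by different rules. A histone peak needed an edge within 1000 bp of a listed start. The others needed a deposited distance, which follows the peak middle, of at most 1000 bp to any annotated gene, pseudogenes included. The HIST1H3E peak, at -1266 bp in shControl DMSO, met the first rule only. Widths and ranks were not compared under a common rule. A width of at least 2000 bp was reached by 11 of 28 histone peaks (39.3%, exact 95% interval 21.5 to 59.4%), 10 of 28 (35.7%, 18.6 to 55.9%), 9 of 30 (30%, 14.7 to 49.4%) and 6 of 29 (20.7%, 7.99 to 39.7%). Among all promoter peaks the shares were 2.61%, 3.33%, 3.34% and 2.67%. The medians are over different peaks, and the shARID1A lists hold added narrow ones such as the 375 and 438 bp peaks at HIST1H2BH. Of 31 promoter members paired in DMSO, 21 were wider and 9 narrower in shARID1A, with a median width ratio of 1.03, against 1.06 for all paired promoter peaks. Of 29 paired in rapamycin, 11 were wider and 18 narrower, with a median ratio of 0.939, against 0.985. The paired peaks thus did not shift in width in the same direction in both treatments.

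By type, the median width in the 4 libraries was 2142, 2306, 1725.5 and 1315 bp for H1, over 5, 5, 4 and 4 genes. It was 2403, 2233, 2168 and 1747 bp for H2A and 2190, 2085.5, 2085 and 1747 bp for H2B, which share most of their peaks. It was 1176, 1309, 1200.5 and 1198.5 bp for H3, and 1476, 1457, 1496 and 1471 bp for H4. H3 and H4 peaks thus kept nearly the same median in all 4 libraries, and the lower medians in shARID1A rapamycin were those of H1, H2A and H2B.

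The width lay on both sides of the start. For the 36 genes of known strand whose start was inside a peak, the median reach was 711, 663, 649.5 and 633.5 bp upstream and 948.5, 991, 929 and 862 bp downstream. For the other protein-coding genes with a start inside a peak, medians ranged from 515 to 545 bp upstream and from 533 to 574 bp downstream. The whole transcribed part lay under the peak for 25, 25, 21 and 22 histone genes.

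**Figure D3:**
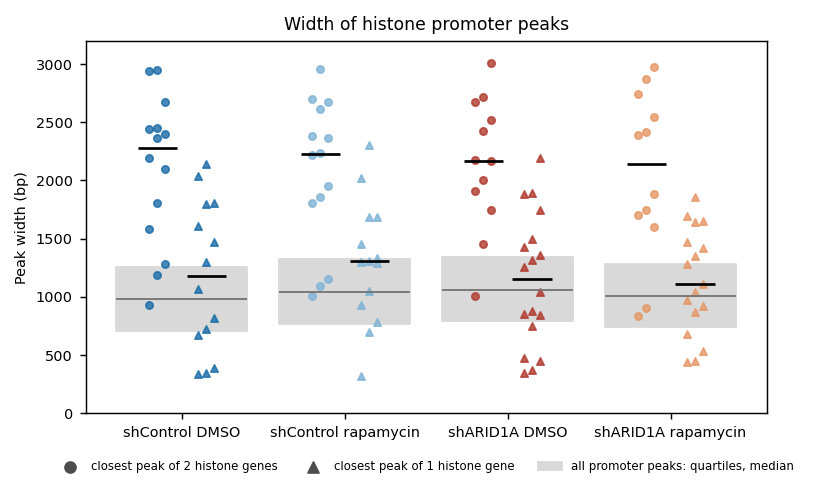
Width in bp (y axis) of each histone promoter peak in 4 libraries (x axis), split into peaks closest to 2 histone genes (circles) and to 1 (triangles), with black bars at their medians. Grey bands give the quartiles of all promoter peaks of the list, picked by the deposited distance, with the median as a line. The medians of shared peaks, from 2139 to 2279 bp, lie above the bands in all 4 libraries. A shared peak has to lie near 2 starts, so width is part of how this group was picked.

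By rank the histone peaks stood slightly below the typical promoter peak, under the different rules given above. Their median rank was 25.5%, 21.3%, 23.8% and 21.1% of the list, and that of all promoter peaks 19.2%, 18.8%, 19.1% and 19.2%. The strongest 10% of each list held 1, 3, 1 and 1 histone promoter peaks, and 30.3%, 30.1%, 29.0% and 28.8% of all promoter peaks. The strongest 25% held 46.4%, 60.7%, 53.3% and 62.1% of the histone promoter peaks. The shares of all promoter peaks there were 58.6%, 59.3%, 59.8% and 59.6%, so the histone share was lower in the DMSO libraries only. By type, the median rank was 27.6%, 30.0%, 43.1% and 39.5% for H1, where HIST1H1B is in the shControl medians only. It was 20.9%, 19.7%, 17.7% and 18.5% for H2A, 21.4%, 21.3%, 23.3% and 18.5% for H2B, 28.2%, 19.7%, 22.8% and 23.3% for H3, and 25.8%, 19.7%, 22.4% and 21.5% for H4. For the 40 genes with a peak in all libraries, the distance between the best and the worst rank had a median of 7.40 percentage points, and it was under 10 for 26 genes and over 20 for 6. Genes that share a peak were counted separately, as were HIST1H2AD and HIST1H2BF among the 6. HIST1H2BH and HIST1H1A, also among them, were counted by different peaks in different libraries.

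Many histone genes shared their open chromatin with a neighbour. A peak within 1000 bp of the starts of at least 2 listed genes occurred 14, 14, 13 and 14 times. Among all promoter peaks, 8.48%, 8.64%, 8.49% and 8.61% lay within 1000 bp of at least 2 protein-coding genes. Counted by the closest peak of each gene, 14, 14, 12 and 12 peaks served 28, 28, 24 and 24 genes. In each library 11 of them contained both starts, and 7 of these were head-to-head H2A and H2B pairs. The other 4 were HIST1H3A with HIST1H4A, HIST1H2AB with HIST1H3B, HIST1H2BB with HIST1H3C, and HIST1H1E with HIST1H2BD.

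The cluster holds 10 head-to-head H2A and H2B pairs, with 194 to 251 bp between starts. For HIST1H2AH, whose strand was not in the tables, the nearer gene end was taken as the start. In 7 pairs 1 peak covered both starts in all 4 libraries, and in 3 pairs neither gene had a peak in any library. The starts of a pair are closer than the 1000 bp window, so a pair counted at 1 gene only could hardly occur. The closed pairs were HIST1H2AA with HIST1H2BA, HIST1H2AI with HIST1H2BL, and HIST1H2AJ with HIST1H2BM. The stretch between HIST1H2AJ and HIST1H2BM printed above holds an octamer, as does the stretch between HIST1H2AG and HIST1H2BJ, which had a peak in every library.

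The 5 shared peaks that were widest by median, among those present in all 4 libraries, are given first. The peak over HIST1H2AG and HIST1H2BJ, at chr6:27131722-27134673 in shControl DMSO, was 2951 to 3010 bp wide and ranked at 11.97%, 10.3%, 17.7% and 17.8%. That over HIST1H2AM (H2AC17) and HIST1H2BO (H2BC17), at chr6:27892674-27895616, was 2702 to 2942 bp wide, with ranks between 22.3% and 23.7%. The peak over HIST1H1E and HIST1H2BD, at chr6:26156239-26158912, was 2673 to 2870 bp wide. The peak over HIST1H2AB (H2AC4) and HIST1H3B, at chr6:26031585-26034027, was 2414 to 2616 bp wide, and that over HIST1H2BB (H2BC3) and HIST1H3C, at chr6:26043329-26045697, was 2368 to 2424 bp wide. The peak over HIST1H2AK (H2AC15) and HIST1H2BN (H2BC15) ranged from 2168 to 2541 bp. The peak over HIST1H1B and HIST1H2AL was shared in the shControl libraries only, as described above, with 2403 and 2380 bp. These coordinates are as deposited for shControl DMSO, on GRCh38. Peaks closest to 2 genes had median widths of 2279, 2224.5, 2170.5 and 2139 bp, and peaks closest to 1 gene, taken per gene, 1182.5, 1306, 1150 and 1109 bp. Because a peak near 2 starts is more easily a wide one, this difference is in part set by the definition.

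**Figure D4:**
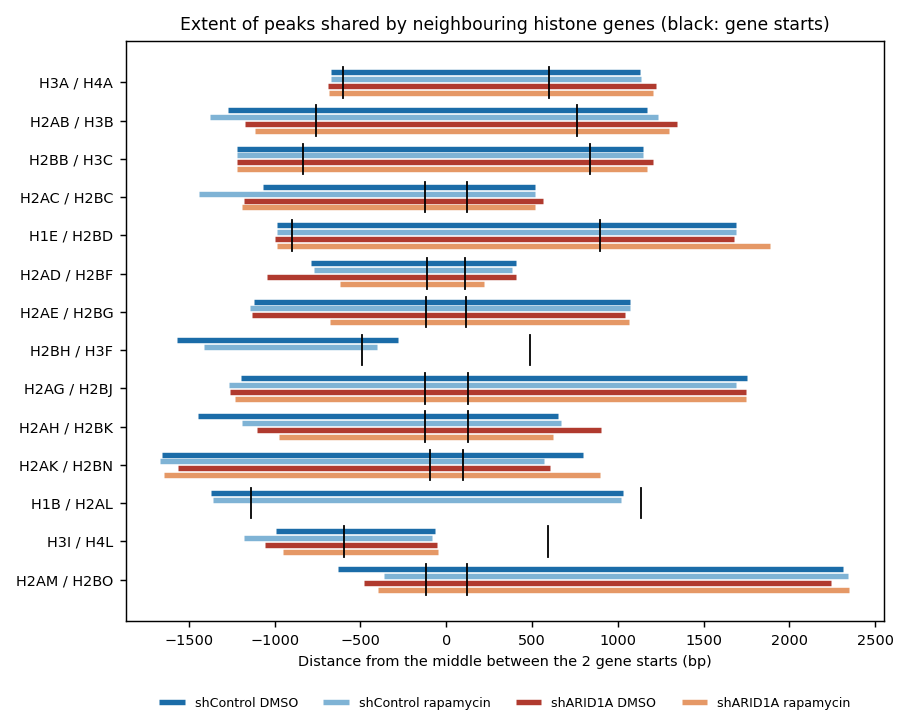
Extent of each peak that was the closest to 2 histone genes, as distance in bp from the middle between both starts (x axis), for each pair (y axis) and library (colour), with black lines at the starts. The pairs HIST1H1B with HIST1H2AL and HIST1H2BH with HIST1H3F have bars for the 2 shControl libraries only; the other 12 pairs have bars for all 4.

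The first question of the design is how ARID1A knockdown changed these peaks. In DMSO, 2 of 40 members (5.0%, exact 95% interval 0.611 to 16.9%) had no overlapping peak in shARID1A, against 27.6% of all peaks of that list. Both lay away from a listed start: a peak of 680 bp between genes, nearest to HIST1H2AA at 10649 bp, and one of 325 bp, 5798 bp from HIST1H2BH. Conversely 5 of 43 members (11.6%, 3.89 to 25.1%) were gained, against 17.7% of all peaks. They were the peaks at HIST1H2BE and HIST1H2BH, an intron peak of HIST1H2AC at 96.2% of the list, a peak of 308 bp nearest to HIST1H2AA, and a peak of 302 bp nearest to the pseudogene HIST1H3PS1.

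In rapamycin, 1 of 37 members (2.70%, 0.0684 to 14.2%) was lost with knockdown, that of HIST1H2BE, against 26.7% of all peaks. Of the members in shARID1A rapamycin, 6 of 42 (14.3%, 5.43 to 28.5%) were gained, against 17.9%. They were peaks at HIST1H2BH, HIST1H3H and the pseudogene HIST1H1PS1, the HIST1H2AC intron peak at 95.8%, a peak 5901 bp from HIST1H2BH, and one nearest to HIST1H3PS1. The HIST1H2AC intron peak and the separate HIST1H2BH peak were thus absent from both shControl lists and present near the weak end of both shARID1A lists. The shares for all peaks are mostly of peaks away from promoters. Among all promoter peaks, 5.82% were lost and 6.56% gained in DMSO, and 6.41% and 5.41% in rapamycin. Of the promoter members, 0 of 31 were lost and 2 of 33 gained in DMSO, and 1 of 30 and 3 of 31 in rapamycin.

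Peaks present in both genotypes could be compared by rank. In DMSO, 3 of 31 paired promoter members stood at least 10 percentage points higher in the shARID1A list and 5 stood at least 10 points lower, which is 9.68% and 16.1% against 11.1% and 7.35% of all paired promoter peaks. In rapamycin, 4 of 29 stood higher and 1 stood lower, which is 13.8% and 3.45% against 9.34% and 8.9%. The shares above background, towards the weak end in DMSO and towards the strong end in rapamycin, rest on 5 and 4 peaks. The 5 include the pseudogene peaks HIST1H1PS1 and HIST1H1PS2, and the 4 include HIST1H2APS2. Ranked among promoter peaks alone, 2 stood higher and 5 lower in DMSO, and 6 stood higher and 4 lower in rapamycin. In DMSO, HIST1H3F (12.1 points), HIST1H4J (10.1) and HIST1H2AD (-14.8) then still shifted by at least 10 points. HIST1H1PS2 (7.28), HIST1H1PS1 (5.21), HIST1H2BI (7.13), HIST1H3D (-5.00) and HIST1H3I (-8.44) did not, so the 5 lower ones are partly other peaks. A direction of the members as a set was not tested.

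The shared peak of HIST1H2AD and HIST1H2BF (H2BC7) had the largest shift towards the strong end in both treatments. It ranked at 48.1% in shControl DMSO and 28.0% in shARID1A DMSO, and at 44.2% in shControl rapamycin and 21.1% in shARID1A rapamycin. Both shARID1A libraries were thus stronger in rank than both shControl libraries. Its width did not follow, with 1191 and 1154 bp in shControl and 1455 and 835 bp in shARID1A. HIST1H2BI shifted the other way, from 53.7% to 67.4% in DMSO and from 69.2% to 91.5% in rapamycin. The peak was weaker in rank in shControl rapamycin than in shARID1A DMSO, so the genotypes overlap.

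Other shifts of at least 10 points of list rank in DMSO were HIST1H3D, from 71.5% to 58.1%, and HIST1H3I, from 38.6% to 28.2%. HIST1H4J went from 40.5% to 55.9%, and HIST1H3F from 30.8% to 44.0%. The pseudogene peaks HIST1H1PS1 and HIST1H1PS2 went from 80.6% to 95.8% and from 46.5% to 58.3%. Their positions in the list went from 42060 to 43800 and from 24276 to 26632. The shARID1A DMSO list is shorter, with 45700 peaks against 52192, so the same position gives a higher percent. The HIST1H1A peak went from position 37786 to 37578, yet from 72.4% to 82.2%. In rapamycin HIST1H4K went from 44.9% to 26.9%, HIST1H3F from 39.5% to 27.5%, and HIST1H2APS2 from 34.0% to 19.03%. The deposited annotation of the HIST1H2APS2 peak names the SLC17A3 promoter in every list except shControl DMSO. After HIST1H2BI, the largest shift towards the weak end in rapamycin was that of the shared peak of HIST1H3A (H3C1) and HIST1H4A, from 9.12% to 16.96%. That peak also went from 10.99% to 16.8% in DMSO, and the peak of HIST1H2AG and HIST1H2BJ from 11.97% to 17.7% and from 10.3% to 17.8%. For both of these strong peaks the 2 shARID1A values lay below the 2 shControl values in strength, by less than 10 points.

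**Figure D5:**
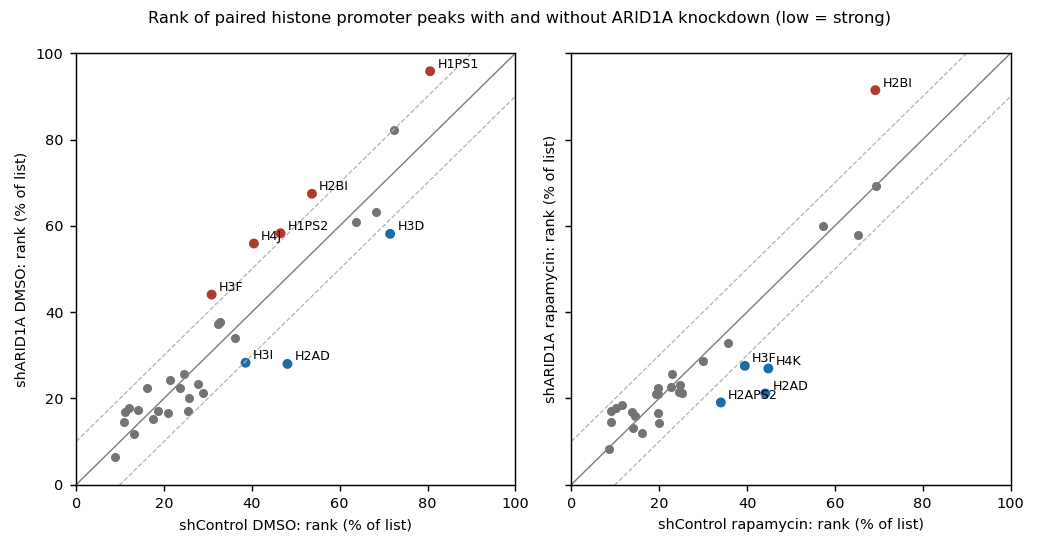
Rank of paired histone promoter peaks in percent of the list, in the shControl library (x axis) and the shARID1A library (y axis), in DMSO (left) and rapamycin (right). Dashed lines mark 10 percentage points; HIST1H2AD lies below them in both panels (blue, stronger with knockdown) and HIST1H2BI above them in both (red, weaker).

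The second question is how 6 h of rapamycin changed the peaks. Each library enters 2 of the 4 comparisons, so these are not separate from the above. In shControl cells, 4 of 40 members (10%, 2.79 to 23.7%) were lost, against 21.7% of all peaks, and 1 of 37 (2.70%) was gained, against 18.5%. Promoter members alone gave 2 of 31 lost and 1 of 30 gained, against 5.81% and 5.72% of all promoter peaks. The lost members were the start peaks of HIST1H3H and HIST1H1PS1 and peaks away from starts nearest to HIST1H2BH and HIST1H3PS1, and the gained one was HIST1H2BE. In shARID1A cells, 4 of 43 (9.30%, 2.59 to 22.1%) were lost, against 21.2%, and 3 of 42 (7.14%, 1.498 to 19.5%) were gained, against 19.3%. Promoter members alone gave 2 of 33 lost and 0 of 31 gained, against 6.497% and 4.51%. There the lost members were the start peaks of HIST1H1A and HIST1H2BE and peaks nearest to HIST1H2AA and HIST1H3PS1. The gained ones were peaks away from starts nearest to HIST1H2AA, HIST1H2BH and HIST1H3PS1. HIST1H2BE was thus gained with rapamycin in shControl and lost with it in shARID1A, in both cases as a weak peak.

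By rank, 3 of 29 paired promoter members stood at least 10 points higher after rapamycin in shControl and 3 stood lower, which is 10.3% each against 10.5% and 9.2% of all paired promoter peaks. In shARID1A, 6 of 31 stood higher and 2 lower, which is 19.4% and 6.45% against 6.47% and 8.44%. The share above background rests on these 6 peaks. They include the pseudogene peaks HIST1H1PS1 and HIST1H2APS2, and HIST1H4J and HIST1H4K, whose promoters share 54.3% of their stretches of 36 bases. A direction of the members as a set was not tested. HIST1H2BI was weaker in rank after rapamycin in both genotypes, at 53.7% without and 69.2% with it in shControl, and at 67.4% without and 91.5% with it in shARID1A. In shControl the largest shift towards the strong end was that of HIST1H3I, from 38.6% to 22.9%. The HIST1H1A peak of 346 bp at 72.4% and the HIST1H1PS2 peak of 513 bp at 46.5% in shControl DMSO were both overlapped by 1 peak of 1336 bp at 57.3% in shControl rapamycin. That merged peak counts once as higher and once as lower. In shARID1A the largest such shifts were HIST1H4J, from 55.9% to 32.8%, and HIST1H1PS1, from 95.8% to 78.3%. HIST1H4K went from 32.7% to 44.9% in shControl, while in shARID1A it went from 37.8% to 26.9%. After HIST1H2BI, the largest shift towards the weak end in shARID1A was that of HIST1H3D, from 58.1% to 69.3%.

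The histone genes elsewhere and the genes that serve histone production gave a comparison from lists chosen for their roles. Of 13 replication histone genes outside chromosome 6 in the start table, 6, 5, 5 and 5 had a promoter peak. Among these, H2AC20, H2AC21, H2BC21 and H4C16 had one in every library. Several of the others, such as H3C14 and H3C15, are near-identical copies of each other, and the part of this in their missing peaks was not tested. All 10 replacement histone genes in the table, which are expressed outside S phase and include H3-3A, H3-3B and H2AZ1, had one in every library. So did all 6 genes of the transcription and locus body list, among them NPAT and HINFP, the factor known to bind the H4 element. The same held for all 9 genes of the 3′ processing list, with the stem-loop binding protein gene SLBP, and all 10 histone chaperone genes. Peaks of the locus body genes ranked at medians of 4.195%, 4.45%, 2.71% and 3.03%, nearer the top of the lists than the median histone promoter peak in the same library.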

How the data were processed

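The labels give 4 ATAC-seq libraries, 1 per group. The submitters' processing notes name BWA, MACS2 2.0 and the builds GRCh38 and hg38. Settings of these tools and any shift for the transposase were not found in the labels or headers, and the depth is unknown. Peaks were listed per library. The score, which the authors deposited on an unstated scale, served only for ranks within a list. Starts, ends and distances to the nearest gene start are as deposited, per the file headers. Promoter members and all promoter peaks were those with a deposited distance of at most 1000 bp. Histone promoter peaks were picked by the distance from the peak edge to a listed start.

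Ranks are in percent of list length. Gene starts came from RefSeq (GRCh38.p14). For HIST1H4A, HIST1H4C and HIST1H3I the start was the gene end on the strand given by the deposited distances, and for HIST1H2AH and HIST1H3J both gene ends were used. Peaks overlapping by 1 bp were paired. A lost peak overlapped none in the other list, and a gained peak is the converse. All members stood on a table of all peaks. Shares have exact 95% intervals. Overlap and pairing were tested on simulated lists. Tools were Python 3.11.15, pandas 2.3.3, NumPy 2.4.6, SciPy 1.17.1 and matplotlib 3.10.9. Members and lists were chosen with earlier results of these data known. Named genes were those with a peak in some libraries only, the strongest, weakest and widest per type, the 5 widest shared regions, the 2 largest rank shifts per comparison and direction, every lost or gained member, and HIST1H1A, HIST1H1T, HIST1H2AA, HIST1H2BA and HIST1H4G; others were chosen after their values were seen.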

Additional observations from a re-analysis of the deposited data

Results flagged for a closer look

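The rank of 2 histone promoter peaks shifted by at least 10 percentage points in opposite directions under the same contrast. HIST1H3F (H3C7) had a difference in rank of 13.2 points with ARID1A knockdown in DMSO, from 30.8% to 44.0% of the list, and of -12.0 points in rapamycin, from 39.5% to 27.5%. HIST1H4K (H4C12) had a difference of 12.1 points with rapamycin in shControl, from 32.7% to 44.9%, and of -10.9 points in shARID1A, from 37.8% to 26.9%. Positive values mean a weaker rank. With 1 library per group, neither difference between contrasts was tested. The promoters of HIST1H4K and HIST1H4J share 54.3% of their stretches of 36 bases, and the part of this in its rank was not tested.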

How the results depend on the processing

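Over 96 alternatives to the counts and medians, 65 stayed within 1.5 times the count or inside the interval of the median, and 31 did not. No rank shift of at least 10 points among the paired promoter members changed its direction under the alternatives in pairing or ranking. Smaller shifts were not recomputed. When a gene had to be named in the nearest-gene column, 27 genes had a promoter peak in each library except shARID1A DMSO, since that column gives 1 name per peak. Ranked among promoter peaks alone, the histone peaks had medians of 59.1%, 54.1%, 58.8% and 54.0%, on the weaker side of the middle of promoter peaks. With peaks of the stronger 50% of each list, 27 members were left in shARID1A DMSO. No member among them was lost or gained in any comparison (0 each), except 1 lost with rapamycin in shControl. Members within 1000 bp of a deposited start gave 0 lost and 2 gained with knockdown in DMSO and 3 gained with knockdown in rapamycin. With rapamycin they gave 2 lost in shControl, and 2 lost and 0 gained in shARID1A. With an overlap of 50% of the shorter peak, 2 members were gained with rapamycin in shControl. With 5 points in place of 10, knockdown moved 6 members up and 10 down in DMSO and 5 down in rapamycin. Rapamycin then moved 5 up and 5 down in shControl and 4 down in shARID1A. By ranks among promoter peaks, 4 moved down with knockdown in rapamycin and 1 with rapamycin in shARID1A. HIST1H2BI then shifted by less than 10 points in all 4 comparisons, by 7.13 and 8.02 with knockdown and by 7.92 and 8.81 with rapamycin. No paired analysis was possible because each group held 1 library. Nor could a replicate be left out. The depth of the libraries is unknown, so a missing weak peak cannot be told apart from one under the detection limit.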

Other observations

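Peaks named for pseudogenes made up 9 of 40 members with DMSO and 7 of 37 with rapamycin in shControl cells. In shARID1A cells they made up 10 of 43 and 10 of 42. Most were nearest to HIST1H3PS1. Merged over the libraries, the members formed 44 regions, of which 34 had a peak in all 4 libraries, 4 in 3, 4 in 2 and 2 in 1. Of the 30 regions at the start of a listed gene, 27 had a peak in all 4, as did 7 of the 14 others. The peak over HIST1H2BB and HIST1H3C has the pseudogene HIST1H2APS5 in the nearest-gene column of all 4 lists, while the annotation column names HIST1H2BB in 1 list and HIST1H3C in 3.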
